A study of Mus musculus with 49 samples.

Results

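Cre-Mlo cells are immature B cells that lost their surface immunoglobulin in culture, and they were compared with Ctrl-Mhi cells that kept it. The comparison takes the 4 samples titled as Cre-Mlo and the 4 titled as Ctrl-Mhi, 8 of the 37 arrays in the U74Av2 table and of 49 in the series. Mice of both groups carried B1-8h, a heavy chain knock-in flanked by loxP sites, and 3-83(kappa), a kappa light chain knock-in, and the mice of Cre-Mlo cells carried Mx-Cre as well, which those of Ctrl-Mhi cells lacked. Mx-Cre is a Cre recombinase gene behind a promoter that type I interferon switches on. Bone marrow of mice aged 4 to 8 weeks was cultured with IL-7 at 16 ng/ml for 5 d, and the cells then spent 2 d without IL-7 in 1000 units/ml interferon alpha/beta. B220+ cells were sorted as IgM-low for Cre-Mlo and as IgM-high for Ctrl-Mhi, in 4 independent sorts for each group. Receptor loss, the Mx-Cre transgene and the sort gate all divide the groups in the same way, so their parts in a difference cannot be told apart. Cre-Mhi cells, the IgM-high cells of the Mx-Cre cultures, have 4 arrays as well and share the fit, and their values are given beside some results.

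Immature B cells carry surface IgM joined to the Ig alpha and Ig beta chains, and this receptor is held to give a low, basal signal even without antigen. The signal runs through tyrosine kinases and adaptor proteins to phospholipase C gamma 2, calcium and protein kinase C, to Ras and the MAP kinases, to phosphoinositide 3-kinase (PI3K) and Akt, and through Vav and Rac proteins to the actin skeleton. Phosphatases and lipid phosphatases hold it in check. The genes described here are those of such pathways and of the cell's general functions. Genes of V(D)J recombination, of MHC class II and of the surface receptors the study stained or named were set aside from the description. The counts and shares of the gene lists still include those of them that a list holds, such as Ptprc (B220) among the phosphatases.

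The labels were checked on the deleted heavy chain. A probe set that matches Ighm and 2 variable segments gave 817, 745, 1076 and 975 units in the Cre-Mlo arrays, against 54538, 65018, 49418 and 66046 units in the Ctrl-Mhi arrays (log2 difference −6.03, limma adjusted p = 3.27e-09). It had the largest difference of the 19 probe sets that match Ighm, of which 6 fell, 0 rose and 13 did not pass. The brightest of them gave 79149, 90252, 84069 and 84101 units in Cre-Mlo arrays, against 142024, 128318, 127391 and 147869 units in Ctrl-Mhi arrays (−0.69, limma adjusted p = 0.00211). Which part of the heavy chain transcript each probe set reads was not determined here. The median signal per array was 476 to 509.3 units in Cre-Mlo and 474.3 to 529 units in Ctrl-Mhi cells, and no array stood apart by these values. The values are hybridization signals of probe sets, groups of oligonucleotides that together measure 1 transcript, on a linear scale, with each array scaled to a target of 1500 units. Signals under 20 were raised to 20 before the log2. All differences are log2 differences of Cre-Mlo minus Ctrl-Mhi with their standard error (SE), so that 1 is a doubling, and a probe set passed at a limma adjusted p under 0.05. Signals of different genes are not compared with each other. In bulk RNA, fewer cells of a type and less RNA per cell cannot be told apart.

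Of 9977 probe sets, 831 passed (8.33%), 422 higher (4.23%) and 409 lower (4.1%) in Cre-Mlo cells. Counted by gene, with each gene shown by its brightest probe set, 653 of 7417 genes passed (8.8%), 333 higher (4.49%) and 320 lower (4.31%). Of these, 132 were higher and 150 lower by at least 2-fold. The 4 Cre-Mlo and 4 Ctrl-Mhi values did not overlap in 820 of the 831 probe sets that passed, and in 16.7% of all probe sets. The 25 largest rises and falls were picked from probe sets without overlap, so that trait adds no support for those genes. The genes set aside made up 43 of the 653, which left 322 higher and 288 lower. The median difference over all genes was −0.045, and the median SE 0.249. In what follows, the share of a list's members that passed is to be read against the 8.8% over all genes. Each count of members was repeated under 19 alternatives, of which 12 leave out 1 array each, and for the lists described here the counts are given where 1 of them, other than the replicate block, moved a count of 5 or more by over 1.5 times. Counts under 5 moved by more than that in many lists and carry little weight.

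Among 40 lists of genes with a shared function, the share that passed was highest for the actin skeleton, PI3K signalling and the NF-kappaB pathway. The lists were chosen with earlier results of these data known, which can raise their shares. The shares and their order describe these lists and are no test of them. It was 36.2% of 80 genes for the actin skeleton and its regulators, 32.4% of 34 genes for PI3K, Akt and insulin signalling and 32.1% of 28 genes for NF-kappaB. B lineage and progenitor transcription factors followed with 27.8% of 72 genes, and tyrosine and dual-specificity phosphatases with 26.1% of 23 genes. In contrast, 0 of 28 glycolysis genes and 0 of 34 cytosolic ribosomal protein genes passed in limma, with 6 and 0 of them at an unadjusted p under 0.05. This order rested in part on single arrays. The share of the PI3K list was 11.8% (4 of 34 genes) without Cre-Mlo replicate 2, that of NF-kappaB 17.9% without Cre-Mlo replicate 1, and that of the actin skeleton 23.8% without Ctrl-Mhi replicate 1 or 2. Under the alternatives the actin list ranked between 1 and 4 of 40, the NF-kappaB list between 1 and 6 and the PI3K list between 2 and 14. A list can lead by this share with members on both sides, as the split by direction shows.

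**Figure D1:**
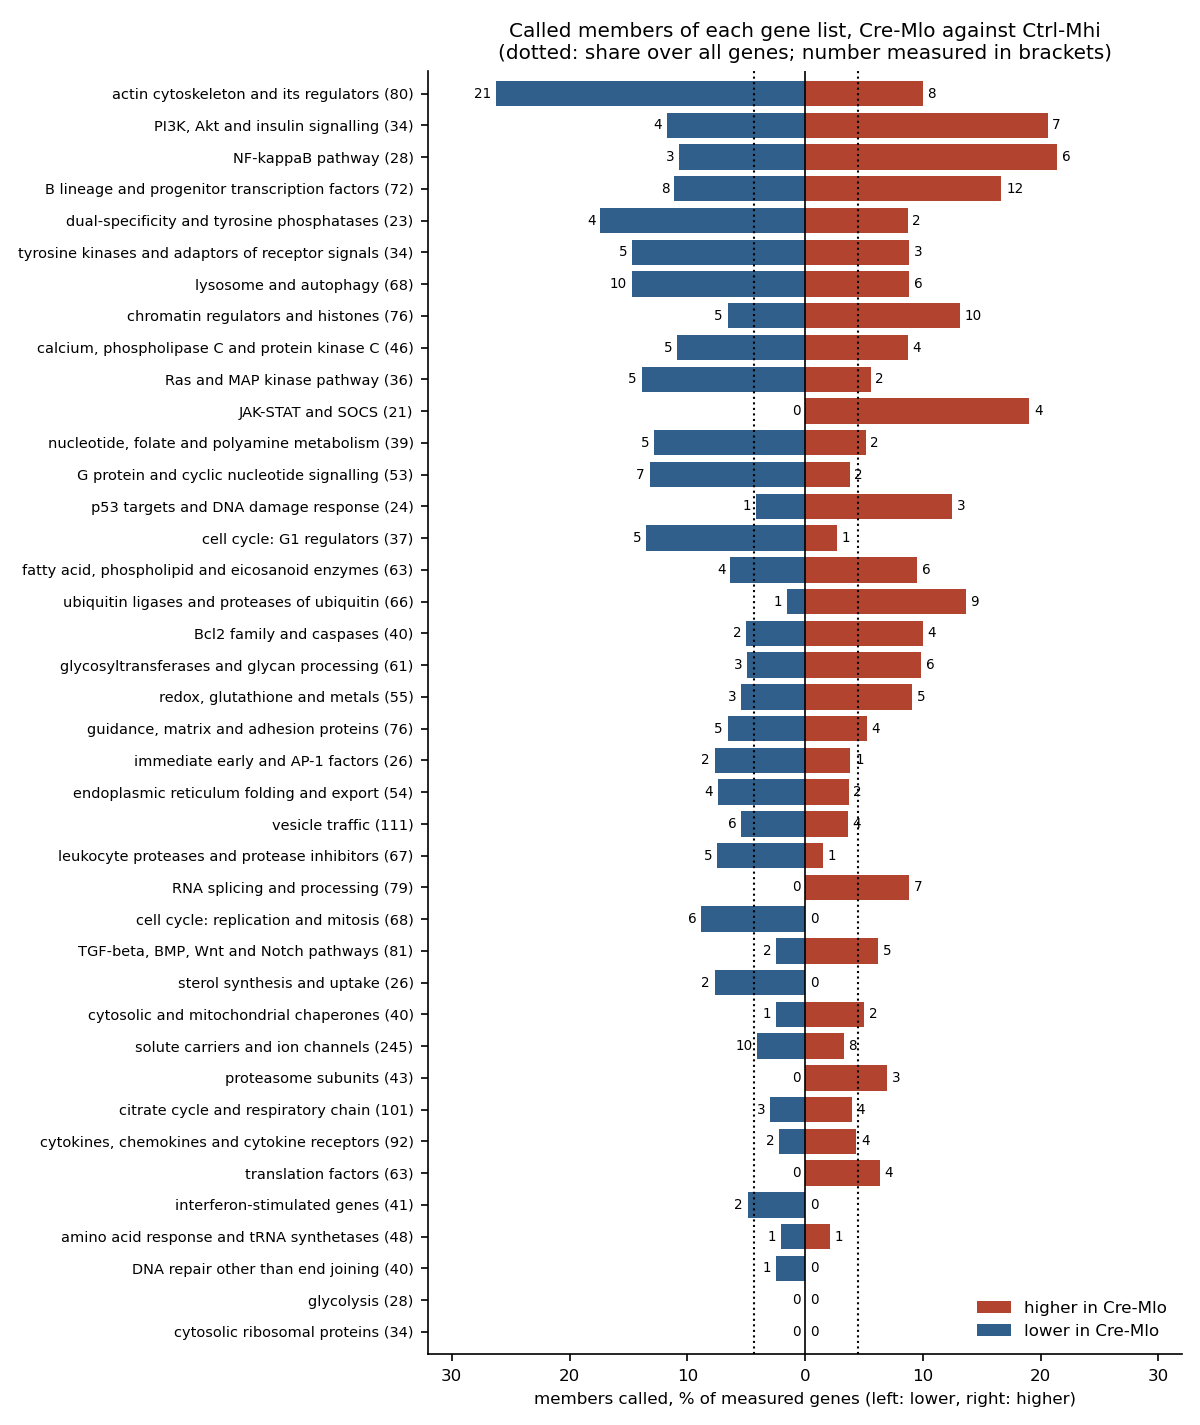
Share of each gene list's measured members that rose or fell in Cre-Mlo against Ctrl-Mhi cells, in percent, with 1 row per list. The lists with most changes are the actin skeleton (36.2%) and PI3K signalling (32.4%), and glycolysis and ribosomal proteins have 0 changed genes.

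Among genes that act next to the receptor, the phosphatase Ptpn6 and the adaptor Lat2 fell the furthest. Ptpn6 encodes SHP-1, a tyrosine phosphatase that damps receptor signals. It gave 611, 1041, 661 and 600 units in Cre-Mlo cells, against 12012, 14800, 9634 and 12838 units in Ctrl-Mhi cells (−4.10, SE 0.19, adjusted p = 4.04e-07). The highest Cre-Mlo array lay far below the lowest Ctrl-Mhi array. Lat2, a membrane adaptor that gathers signalling proteins after it is phosphorylated, gave 724, 764, 780 and 966 units in Cre-Mlo cells, against 6479, 7180, 5229 and 6619 units in Ctrl-Mhi cells (−2.98, SE 0.17, adjusted p = 1.88e-06). Again the groups were well apart. Ptpn22, a phosphatase that acts on Src family kinases, was dim in Cre-Mlo cells, at 72, 72, 136 and 67 units, against 682, 964, 285 and 556 units in Ctrl-Mhi cells (−2.78, SE 0.54, adjusted p = 0.00877), and its Ctrl-Mhi values were widely spread.

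Of 34 measured kinases and adaptors of receptor signals 5 fell, 3 rose and 26 did not pass. Their median difference was −0.13. Besides Lat2, the members that fell were Sh3bp5, Sh3bp2, Sh2b3 and Hcls1. Sh3bp5, a protein that binds the kinase Btk, averaged 266 ± 91.8 units in Cre-Mlo and 832 ± 123 units in Ctrl-Mhi cells (mean ± SD, n = 4 each here and below). Sh3bp2, an adaptor of Syk family kinases, averaged 446 ± 95.4 units in Cre-Mlo and 1154 ± 164 units in Ctrl-Mhi cells. Sh2b3, known as Lnk, an adaptor that restrains cytokine receptors, averaged 2095 ± 216 units in Cre-Mlo and 5244 ± 477 units in Ctrl-Mhi cells. The differences of these 3 genes ran from −1.70 to −1.33 (limma adjusted p = 0.00228, 0.000561 and 0.000538). Blnk went the other way. This adaptor, which brings phospholipase C gamma 2 to Syk and Btk, gave 39357, 45367, 38018 and 44778 units in Cre-Mlo cells, against 24949, 19554, 23572 and 19230 units in Ctrl-Mhi cells (0.95, SE 0.15, adjusted p = 0.00266), with no overlap. Cd79a, the Ig alpha chain, did not pass (−0.60, SE 0.18, adjusted p = 0.0764).

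Of 23 tyrosine and dual-specificity phosphatases 4 fell, 2 rose and 17 did not pass. Their median difference was −0.38. Ptpn18 averaged 2803 ± 445 units in Cre-Mlo and 4538 ± 280 units in Ctrl-Mhi cells (−0.71, adjusted p = 0.00915). Ptpn2, which acts on Janus kinases and STAT proteins, rose (0.75, adjusted p = 0.00877). So did Dusp16, a phosphatase of MAP kinases, with 1072, 1126, 1162 and 967 units in Cre-Mlo cells, against 397, 82, 314 and 266 units in Ctrl-Mhi cells (2.24, SE 0.43, adjusted p = 0.00868). The Dusp16 values of Cre-Mlo cells were close together, while 1 Ctrl-Mhi array was far dimmer than the other 3.

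Phospholipase C gamma 2 and several proteins that act after it were lower. Plcg2, the enzyme that makes the second messengers inositol trisphosphate and diacylglycerol in B cells, gave 2523, 3012, 2804 and 3015 units in Cre-Mlo cells, against 12250, 9085, 10351 and 8488 units in Ctrl-Mhi cells (−1.81, SE 0.15, adjusted p = 3.1e-05). Every Cre-Mlo array was below every Ctrl-Mhi array by a wide margin. Prkca, a protein kinase C that diacylglycerol and calcium activate, averaged 402 ± 45 units in Cre-Mlo and 912 ± 130 units in Ctrl-Mhi cells (−1.18, adjusted p = 0.000458). Atp2a3, a pump that returns calcium to the endoplasmic reticulum, averaged 11160 ± 1308 units in Cre-Mlo and 26673 ± 2706 units in Ctrl-Mhi cells (−1.26, adjusted p = 0.000221). Higher in Cre-Mlo cells were 2 enzymes that remove the second messengers. Dgka, which turns diacylglycerol into phosphatidic acid, gave 5242, 5212, 4780 and 5121 units in Cre-Mlo cells, against 2406, 2418, 2849 and 2859 units in Ctrl-Mhi cells (0.95, SE 0.11, adjusted p = 0.000461). Inpp5a, which takes a phosphate off inositol trisphosphate, averaged 2284 ± 66.5 units in Cre-Mlo and 1339 ± 225 units in Ctrl-Mhi cells (0.79, adjusted p = 0.00599). The list of 46 genes of calcium, phospholipase C and protein kinase C moved both ways, with 5 that fell, 4 that rose and a median of −0.08. The 5 became 8 without Cre-Mhi replicate 3.

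In the Ras and MAP kinase list, 5 of 36 genes fell and 2 rose, with a median of −0.05. The number that fell was 2 without Cre-Mlo replicate 1 or Ctrl-Mhi replicate 2, and 3 without Cre-Mlo replicate 2 or 3, Ctrl-Mhi replicate 1 or 3, or Cre-Mhi replicate 2. Map4k1, a kinase that restrains antigen receptor signals, gave 3693, 4138, 4900 and 4278 units in Cre-Mlo cells, against 11664, 11050, 10912 and 9320 units in Ctrl-Mhi cells (−1.34, SE 0.14, adjusted p = 0.000194). Rasgrp2, an exchange factor that calcium activates, averaged 2975 ± 215 units in Cre-Mlo and 5103 ± 855 units in Ctrl-Mhi cells (−0.77, adjusted p = 0.00657). Sos2, an exchange factor that loads Ras, rose, with 925 ± 130 units in Cre-Mlo and 419 ± 97.8 units in Ctrl-Mhi cells (1.16, adjusted p = 0.00426). These exchange factors did not move in 1 direction.

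Of PI3K, Akt and insulin signalling genes 7 of 34 rose and 4 fell, with a median of 0.20. The 7 became 2 to 4 without any 1 of the 8 Cre-Mlo and Ctrl-Mhi arrays, 4 without Cre-Mhi replicate 2, and 3 with those 8 arrays alone in the fit. Irs2, an adaptor of the insulin receptor, gave 918, 716, 480 and 716 units in Cre-Mlo cells, against 91, 159, 115 and 65 units in Ctrl-Mhi cells. Its difference was 2.76 (SE 0.34, adjusted p = 0.000561), with the lowest Cre-Mlo array well above the highest Ctrl-Mhi array. Sgk1, a kinase related to Akt, averaged 1349 ± 238 units in Cre-Mlo and 578 ± 134 units in Ctrl-Mhi cells (1.23, adjusted p = 0.00424). Prr5, a subunit of the mTOR complex that phosphorylates Akt, fell, with 233, 130, 169 and 157 units in Cre-Mlo cells, against 1328, 1674, 1465 and 850 units in Ctrl-Mhi cells (−2.94, SE 0.57, adjusted p = 0.00945). Pip4k2a, a lipid kinase, averaged 960 ± 136 units in Cre-Mlo and 2042 ± 132 units in Ctrl-Mhi cells (−1.10, adjusted p = 0.000409).

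Rgs14 and Grk6, regulators of G protein signals, fell in Cre-Mlo cells. Rgs14, which speeds the switching off of inhibitory G proteins, gave 2438, 2318, 2479 and 2051 units in Cre-Mlo cells, against 9149, 8094, 9016 and 8297 units in Ctrl-Mhi cells (−1.90, SE 0.11, adjusted p = 2.4e-06). Grk6, a kinase that desensitises chemokine receptors and their relatives, gave 5873, 5079, 5147 and 4816 units in Cre-Mlo cells, against 14999, 14022, 14387 and 13620 units in Ctrl-Mhi cells (−1.45, SE 0.10, adjusted p = 1.22e-05). The spread within a group was small for both genes, and the groups were far apart. Pkib, an inhibitor of protein kinase A, averaged 304 ± 49.2 units in Cre-Mlo and 2141 ± 383 units in Ctrl-Mhi cells (−2.81, adjusted p = 1.95e-05). Pde7a, which breaks down cyclic AMP, was also lower (−1.04, adjusted p = 0.00206). Akap12, a scaffold that anchors protein kinase A, was higher, with 7355 ± 874 units in Cre-Mlo and 3211 ± 708 units in Ctrl-Mhi cells (1.21, adjusted p = 0.00877). Of 53 genes of the list 7 fell and 2 rose, with a median of −0.10.

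**Figure D2:**
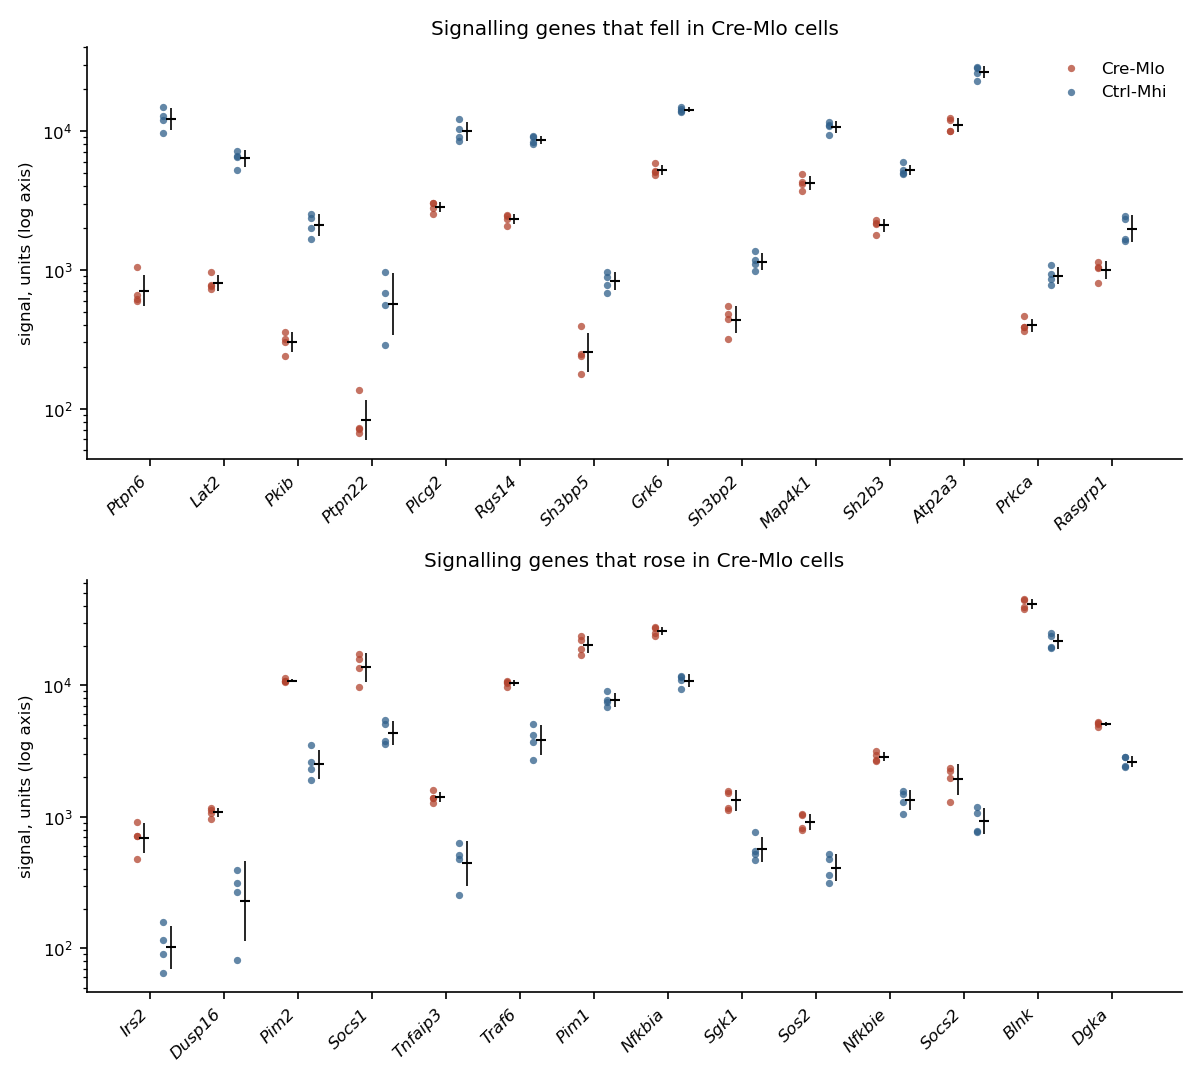
Signals of 28 signalling genes in every array, on a log scale in units of the arrays, with Cre-Mlo left of Ctrl-Mhi for each gene. The upper panel holds genes that fell in Cre-Mlo cells, with Ptpn6 at 600 to 1041 units against 9634 to 14800 units in Ctrl-Mhi cells. The lower panel holds genes that rose, such as Irs2 at 480 to 918 units against 65 to 159 units.

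Genes of the actin skeleton and of its regulators fell more often than they rose in Cre-Mlo cells. Of 80 measured, 21 fell, 8 rose and 51 did not pass. Their median difference was −0.30, against −0.045 over all genes. The 21 became 12 without Ctrl-Mhi replicate 1, and 13 without Ctrl-Mhi replicate 2 or Cre-Mlo replicate 1 or 2. Vcl, the gene of vinculin, which ties actin filaments to adhesion sites, gave 213, 333, 262 and 253 units in Cre-Mlo cells, against 2167, 1380, 1836 and 1386 units in Ctrl-Mhi cells (−2.67, SE 0.19, adjusted p = 1.24e-05). The highest Cre-Mlo array lay far below the lowest Ctrl-Mhi array. Rac2, a GTPase of blood cells that drives actin growth, gave 31972, 31762, 31762 and 36465 units in Cre-Mlo cells, against 69842, 62378, 63289 and 63560 units in Ctrl-Mhi cells (−0.97, SE 0.11, adjusted p = 0.000277). Its fall was smaller than that of Vcl but as regular across the arrays.

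Other members of the path that leads to actin fell with them. Vav1, the exchange factor that loads Rac proteins after receptor signals, averaged 2401 ± 288 units in Cre-Mlo and 6287 ± 1190 units in Ctrl-Mhi cells (−1.38, adjusted p = 0.00215), although another of its probe sets gave 0.27. Wipf1, the partner of the Wiskott-Aldrich protein, averaged 3107 ± 237 units in Cre-Mlo and 6348 ± 547 units in Ctrl-Mhi cells (−1.03, adjusted p = 0.000278). Coro1a, an actin-binding protein of leukocytes, averaged 16778 ± 862 units in Cre-Mlo and 27484 ± 1579 units in Ctrl-Mhi cells (−0.71, adjusted p = 0.00144). The gelsolin gene Gsn, which cuts actin filaments, also fell, with 255, 126, 132 and 365 units in Cre-Mlo cells, against 862, 1483, 817 and 727 units in Ctrl-Mhi cells (−2.23, SE 0.46, adjusted p = 0.0123). The furthest rise in the list was that of Actn1, alpha-actinin, which bundles actin filaments, with 674, 1931, 1441 and 924 units in Cre-Mlo cells, against 382, 116, 466 and 178 units in Ctrl-Mhi cells (2.22, SE 0.46, adjusted p = 0.0121). Both groups were widely spread for Actn1. Among adhesion receptors, Itgal, the alpha chain of the integrin LFA-1, fell to 354 ± 83.3 units in Cre-Mlo cells, against 1098 ± 270 units in Ctrl-Mhi cells (−1.63, adjusted p = 0.012), and the integrin beta 1 chain Itgb1 rose slightly (0.55, adjusted p = 0.00946).

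**Figure D3:**
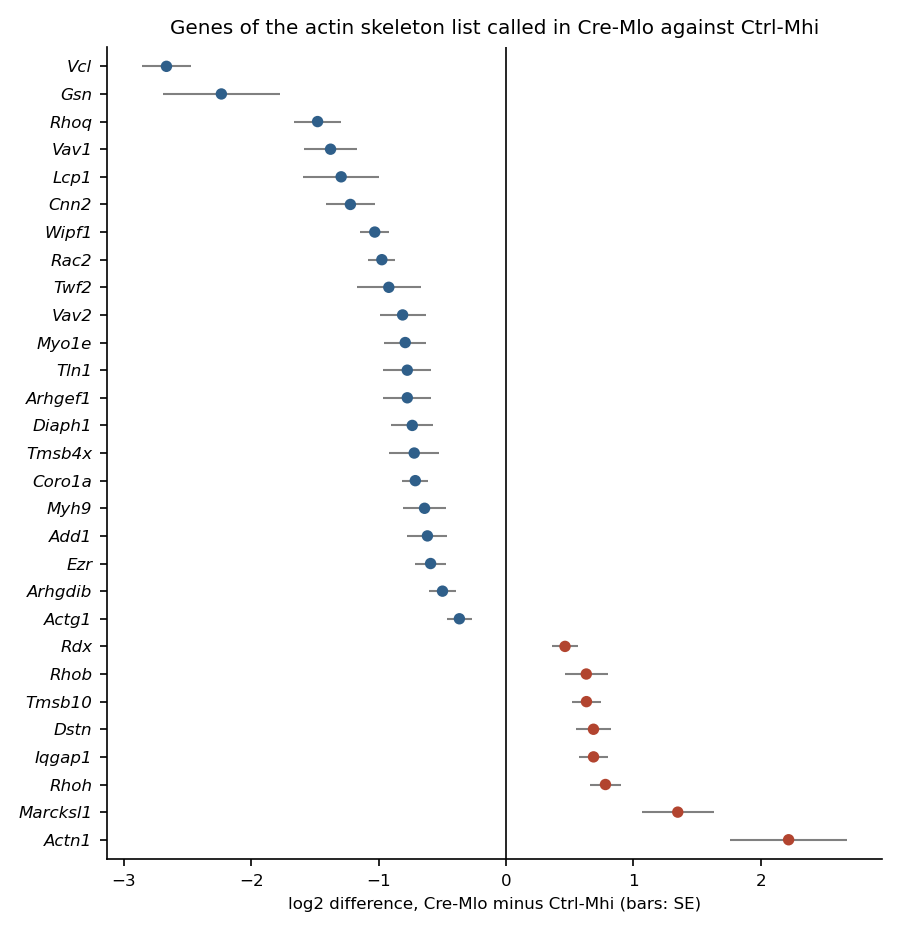
Log2 difference of Cre-Mlo minus Ctrl-Mhi, with its standard error, for the 29 genes of the actin skeleton list that passed, 1 row per gene. The 21 genes below 0 include Vcl at −2.67 and Rac2 at −0.97, and Actn1 at 2.22 is the highest of the 8 above 0.

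The promoters of the actin list were searched for the CArG box (CC, then 6 bases that are A or T, then GG), the element that serum response factor binds, since this factor is known for actin genes. RefSeq promoter windows of build GRCm38.p6 were used, which run from 250 bases before to 50 bases after the start of a gene, and both strands were read (the box is its own mirror image). Of 80 list genes, 68 had a window, and 6 of these 68 held the box (8.82%). The box stood in 4 of 18 genes that fell (22.2%), in 0 of 8 that rose and in 2 of 42 that did not pass (4.76%). It stood in 1.91% of the 5916 measured genes with a window, and in 1.63% of all 32851 windows. A gene was counted if any of its windows held the box, so the last share is per window and not per gene. The 4 are shown with the box in capitals, each in a stretch of 60 bases read along the gene's own strand. They were chosen by this search, after the values had been seen.
Vcl, chr14:20929148-20929207, plus strand: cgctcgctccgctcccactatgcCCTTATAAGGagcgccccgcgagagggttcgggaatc
Cnn2, chr10:79988519-79988578, plus strand: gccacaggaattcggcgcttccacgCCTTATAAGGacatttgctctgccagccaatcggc
Myo1e, chr9:70207293-70207352, plus strand: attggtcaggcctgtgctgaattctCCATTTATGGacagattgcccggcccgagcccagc
Actg1, chr11:120348551-120348610, minus strand: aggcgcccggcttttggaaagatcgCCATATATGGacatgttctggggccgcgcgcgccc
Vcl and Cnn2 hold the same 10 letters. Cnn2 encodes a calponin, which binds actin filaments (−1.22, limma adjusted p = 0.00269), Myo1e a myosin that links actin to membranes (−0.79, adjusted p = 0.0135) and Actg1 gamma actin itself (−0.37, adjusted p = 0.0446). The call of Actg1 was lost under 14 of the 19 alternatives, among them leaving out any 1 of the 12 arrays but Cre-Mhi replicate 3 (adjusted p up to 0.106) and quantile normalization (−0.22, adjusted p = 0.265), and that of Myo1e after quantile normalization (adjusted p = 0.0524). A match is a description of the letters, and binding was not measured.

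In the cytokine pathway from Janus kinases to STAT proteins, 4 of 21 measured genes rose, 0 fell and 17 did not pass in limma, with a median of 0.25 (19% against 8.8% over all genes). At an unadjusted p under 0.05, 5 were higher and 0 lower. The members that rose are genes that STAT proteins are known to switch on. Pim2, a kinase that favours survival, gave 10823, 10524, 11330 and 10740 units in Cre-Mlo cells, against 2606, 1890, 3486 and 2299 units in Ctrl-Mhi cells (2.11, SE 0.19, adjusted p = 5.9e-05). Its relative Pim1 gave 22196, 17085, 18862 and 23676 units in Cre-Mlo cells, against 9084, 6836, 7783 and 7416 units in Ctrl-Mhi cells (1.39, SE 0.19, adjusted p = 0.00129). Both kinases were higher in all 4 Cre-Mlo arrays than in any Ctrl-Mhi array. Socs1, which shuts off Janus kinases in a feedback loop, gave 13535, 17243, 9720 and 15787 units in Cre-Mlo cells, against 3743, 5061, 3565 and 5410 units in Ctrl-Mhi cells (1.65, SE 0.21, adjusted p = 0.000608). Socs2, of the same family, averaged 1972 ± 473 units in Cre-Mlo and 947 ± 212 units in Ctrl-Mhi cells (1.05, adjusted p = 0.012). All 8 cultures had been given interferon. Of 41 interferon-stimulated genes 0 rose and 2 fell in limma, a share of 4.88% against 8.8% over all genes. At an unadjusted p under 0.05, 5 of them were higher and 6 lower. The 2 that fell in limma were Ifi30, a thiol reductase of lysosomes (−0.84, adjusted p = 0.00193), and Pml (−0.53, adjusted p = 0.0404). Pml lost its call under 12 of the 19 alternatives, among them leaving out any 1 of the 8 compared arrays or Cre-Mhi replicate 1 or 4 (adjusted p up to 0.102).

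Some cytokine genes were higher as well. Il12a, the p35 chain of interleukin-12, gave 9485, 7882, 9140 and 7765 units in Cre-Mlo cells, against 1438, 2058, 1757 and 3158 units in Ctrl-Mhi cells (2.08, SE 0.22, adjusted p = 0.000182). Il16, a secreted attractant of T cells, averaged 8506 ± 256 units in Cre-Mlo and 4400 ± 413 units in Ctrl-Mhi cells (0.96, adjusted p = 0.00103). Csf1, the macrophage growth factor, averaged 2099 ± 282 units in Cre-Mlo and 947 ± 219 units in Ctrl-Mhi cells (1.17, adjusted p = 0.00706). Flt3l, a growth factor of early progenitors, was lower (−0.78, adjusted p = 0.0119). Over the whole list of 92 cytokines, chemokines and their receptors, 4 rose and 2 fell, which is a lower share than that over all genes.

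Transcription factors of the B lineage and of progenitors changed in both directions. Of 72, 12 rose and 8 fell, with a median of 0.07, and under the alternatives 12 to 17 rose and 8 to 10 fell. Sox4, a factor that early B cell development needs, gave 20724, 19572, 25241 and 25077 units in Cre-Mlo cells, against 3693, 3910, 4470 and 5497 units in Ctrl-Mhi cells (2.37, SE 0.24, adjusted p = 0.000154). Lef1, the nuclear partner of beta-catenin that is known from pro-B cells, gave 6129, 6048, 7421 and 7305 units in Cre-Mlo cells, against 2199, 2333, 2814 and 2368 units in Ctrl-Mhi cells (1.47, SE 0.12, adjusted p = 3.1e-05). Both factors of early stages were thus higher in each Cre-Mlo array. Prdm1, the repressor Blimp-1 of plasma cells, averaged 551 ± 80.6 units in Cre-Mlo and 116 ± 29.5 units in Ctrl-Mhi cells (2.27, adjusted p = 3.34e-05). Gabpb1, a subunit of the Ets factor GABP, averaged 3690 ± 416 units in Cre-Mlo and 1575 ± 167 units in Ctrl-Mhi cells (1.23, adjusted p = 0.000165). Id1, an inhibitor of E proteins, lay near the floor in Ctrl-Mhi cells, with 256, 416, 403 and 268 units in Cre-Mlo cells, against 86, 30, 43 and 76 units in Ctrl-Mhi cells (2.60, SE 0.47, adjusted p = 0.00617), and its difference became 1.71 with a floor of 100.

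Among the 8 factors that fell were Lyl1, Lmo2, Mef2c and Cebpb. Lyl1, a basic helix-loop-helix factor, gave 4188, 5349, 4573 and 3212 units in Cre-Mlo cells, against 17927, 16018, 18905 and 17266 units in Ctrl-Mhi cells (−2.04, SE 0.15, adjusted p = 1.36e-05). Lmo2, a LIM protein that joins such factors in 1 complex, gave 533, 601, 158 and 690 units in Cre-Mlo cells, against 2207, 3245, 1415 and 2970 units in Ctrl-Mhi cells (−2.44, SE 0.43, adjusted p = 0.00555). Lmo2 was spread in both groups. Mef2c, a factor that B cell receptor signals activate, averaged 2523 ± 356 units in Cre-Mlo and 6703 ± 597 units in Ctrl-Mhi cells (−1.42, adjusted p = 0.000109). Cebpb, which is best known from myeloid cells, was close to the floor, with 27.4 ± 11.8 units in Cre-Mlo and 232 ± 77.5 units in Ctrl-Mhi cells (−3.11, adjusted p = 0.00845), and it did not pass with a floor of 100 (−1.16, adjusted p = 0.0769).

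Among immediate early genes, Jun and Egr1 moved in opposite directions. Jun, a subunit of the factor AP-1, gave 3338, 4882, 3522 and 3049 units in Cre-Mlo cells, against 672, 103, 191 and 311 units in Ctrl-Mhi cells (3.84, SE 0.48, adjusted p = 0.000565). It was the furthest rise among the named genes. Egr1, a zinc finger factor that Ras and MAP kinase signals switch on, averaged 464 ± 218 units in Cre-Mlo and 1538 ± 56 units in Ctrl-Mhi cells (−1.94, SE 0.45, adjusted p = 0.0221), and lost its call without any 1 of the 4 Ctrl-Mhi arrays (adjusted p = 0.0503 to 0.0531). Of 26 immediate early genes 1 rose, 2 fell and 23 did not pass (11.5%, against 8.8% over all genes). In the list of TGF-beta, BMP, Wnt and Notch pathways 5 of 81 genes rose and 2 fell. The share that passed there, 8.64%, was near that over all genes, and the median was −0.04. Tgif1, a repressor in the TGF-beta pathway, averaged 6332 ± 907 units in Cre-Mlo and 2007 ± 626 units in Ctrl-Mhi cells (1.69, adjusted p = 0.000565). The activin receptors Acvr2a and Acvr2b rose (1.60 and 1.17, limma adjusted p = 0.00706 and 0.0083), although another probe set of Acvr2a did not pass (0.51, limma adjusted p = 0.627).

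Of 76 chromatin regulators and histones 10 rose and 5 fell, with a median of 0.05. The 10 became 4 to 6 without Cre-Mlo replicate 1, 2 or 4, Ctrl-Mhi replicate 2 or 4, or Cre-Mhi replicate 1, and the 5 became 2 or 3 without any 1 of the 12 arrays other than Cre-Mlo replicate 4. With the 8 arrays alone in the fit 5 rose and 3 fell. The 4 genes described next kept their calls under all 19 alternatives. Asf1a, a chaperone that carries histones H3 and H4, gave 31453, 32951, 28398 and 29256 units in Cre-Mlo cells, against 5967, 4882, 5778 and 4983 units in Ctrl-Mhi cells (2.50, SE 0.14, adjusted p = 1.98e-06). Ezh2, the methyltransferase of the Polycomb complex PRC2, gave 20239, 16786, 11404 and 21757 units in Cre-Mlo cells, against 2939, 4695, 3906 and 3911 units in Ctrl-Mhi cells (2.16, SE 0.27, adjusted p = 0.000641). For Ezh2 the third Cre-Mlo array was the lowest of its group and still more than 2-fold above every Ctrl-Mhi array. Smarca4, the ATPase of the SWI/SNF remodelling complex, averaged 46025 ± 2636 units in Cre-Mlo and 21365 ± 4490 units in Ctrl-Mhi cells (1.13, adjusted p = 0.00235). Nap1l1, a chaperone of histones H2A and H2B, was lower, with 1590 ± 597 units in Cre-Mlo and 4522 ± 811 units in Ctrl-Mhi cells (−1.56, adjusted p = 0.00215). Ash2l, a subunit of histone H3 methyltransferases, stood among the largest rises too, with 722 ± 116 units in Cre-Mlo and 160 ± 27 units in Ctrl-Mhi cells (2.17, adjusted p = 5.48e-05). Cbx2, a Polycomb protein, rose by 2.22 (adjusted p = 0.037) but lost its call under 9 of the 19 alternatives, among them leaving out any Cre-Mlo array, Ctrl-Mhi replicate 2, 3 or 4, or Cre-Mhi replicate 1 (adjusted p up to 0.0993), and another of its probe sets gave −0.39.

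**Figure D4:**
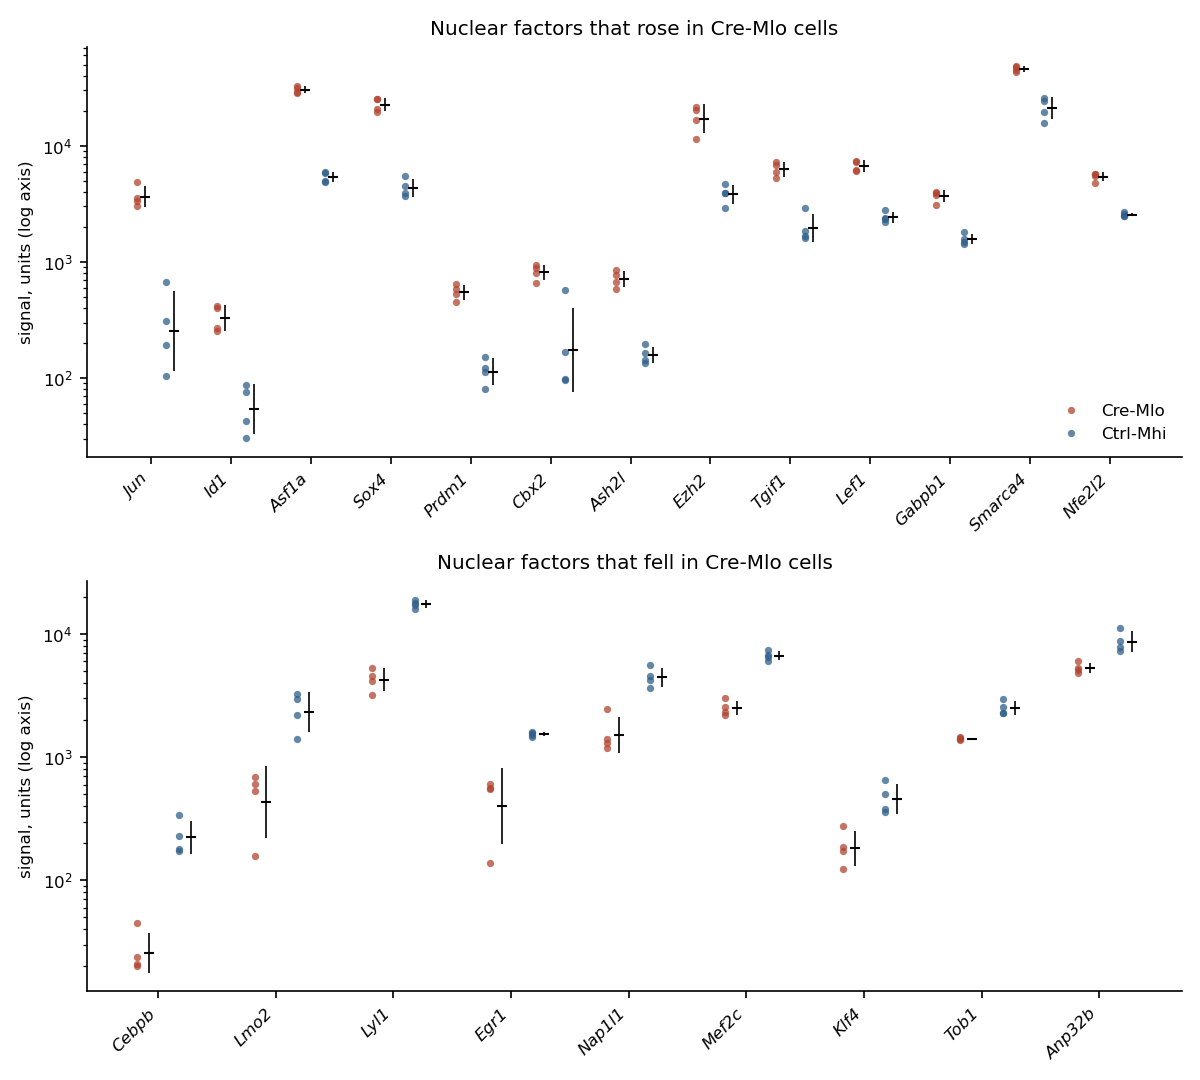
Signals of 22 transcription factors and chromatin proteins in every array, on a log scale in units of the arrays, with Cre-Mlo left of Ctrl-Mhi for each gene. The upper panel holds genes that rose, with Asf1a at 28398 to 32951 units against 4882 to 5967 units in Ctrl-Mhi cells. The lower panel holds genes that fell, such as Lyl1 at 3212 to 5349 units against 16018 to 18905 units.

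Genes of DNA replication and mitosis lay mostly below 0, but few passed. Of 68, 64 lay at or below 0, against 4049 of 7417 over all genes, with a median of −0.66. Of the 68, 6 fell, 0 rose and 62 did not pass (8.82%, against 8.8% over all genes). At an unadjusted p under 0.05, 23 were lower and 1 higher. The 6 became 3 without Cre-Mlo replicate 3, without Ctrl-Mhi replicate 1 or with the 8 arrays alone in the fit, and 10 with a trend in the variance. The firmest was Rfc1, the large subunit of the clamp loader, with 850 ± 67.4 units in Cre-Mlo and 1735 ± 164 units in Ctrl-Mhi cells (−1.03, adjusted p = 0.00033). Cdt1, which licenses replication origins, averaged 1128 ± 217 units in Cre-Mlo and 2634 ± 361 units in Ctrl-Mhi cells (−1.23, adjusted p = 0.000679). Of regulators of the G1 phase 5 of 37 fell and 1 rose, and the 5 became 2 without Cre-Mlo replicate 2 or Ctrl-Mhi replicate 1, and 3 without Cre-Mlo replicate 3 or Ctrl-Mhi replicate 2 or 3 or after quantile normalization. Ccnd2, the D-type cyclin that B cell receptor signals are known to raise, gave 320, 404, 566 and 348 units in Cre-Mlo cells, against 1218, 1444, 1327 and 1784 units in Ctrl-Mhi cells (−1.84, SE 0.20, adjusted p = 0.000294). The antiproliferative gene Tob1 fell too (−0.83, adjusted p = 0.00269). Cdkn1b, the inhibitor p27, had 642 ± 170 units in Cre-Mlo and 205 ± 136 units in Ctrl-Mhi cells (1.87, adjusted p = 0.0332), a call that was lost under 9 of the 19 alternatives, among them leaving out any Cre-Mlo array or Ctrl-Mhi replicate 1, 2 or 3 (adjusted p up to 0.0944).

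Nfkbia, Nfkbie and Tnfaip3, which restrain NF-kappaB, rose in Cre-Mlo cells. The factor NF-kappaB is held in the cytoplasm by the proteins of Nfkbia and Nfkbie, and it switches on several of its own inhibitors. Nfkbia gave 25211, 27272, 23638 and 27581 units in Cre-Mlo cells, against 11053, 9308, 11714 and 11606 units in Ctrl-Mhi cells (1.25, SE 0.13, adjusted p = 0.000228). Tnfaip3, the enzyme A20 that ends signals to NF-kappaB, gave 1280, 1398, 1400 and 1588 units in Cre-Mlo cells, against 252, 480, 630 and 510 units in Ctrl-Mhi cells (1.67, SE 0.29, adjusted p = 0.00489). Nfkbie averaged 2870 ± 225 units in Cre-Mlo and 1352 ± 229 units in Ctrl-Mhi cells (1.10, adjusted p = 0.0106). Traf6, a ubiquitin ligase that carries signals towards NF-kappaB, was also higher, with 10388 ± 507 units in Cre-Mlo and 3914 ± 979 units in Ctrl-Mhi cells (1.44, adjusted p = 0.000548), and Tlr6, a receptor of the pathway, was lower (−0.88, adjusted p = 0.000421). Of 28 genes of the pathway 6 rose and 3 fell, with a median of 0.07.

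Genes that govern survival moved in opposite directions within 1 family. Bcl2l1, which encodes the survival protein Bcl-xL, averaged 9608 ± 1895 units in Cre-Mlo and 4564 ± 648 units in Ctrl-Mhi cells (1.06, adjusted p = 0.0129). Its relative Mcl1, which also favours survival, gave 5832, 6352, 6950 and 6338 units in Cre-Mlo cells, against 10232, 10420, 10939 and 9333 units in Ctrl-Mhi cells (−0.68, SE 0.11, adjusted p = 0.00368). Bad, which opposes Bcl-xL, averaged 424 ± 30.8 units in Cre-Mlo and 757 ± 84.6 units in Ctrl-Mhi cells (−0.83, adjusted p = 0.00129). Casp4, an inflammatory caspase, rose (1.46, adjusted p = 0.000389). In the list of 40 genes 4 rose and 2 fell. Among 24 targets of p53 and the DNA damage response 3 rose and 1 fell. Rrm2b, a ribonucleotide reductase subunit that supplies nucleotides for repair, gave 10302, 10530, 10742 and 9841 units in Cre-Mlo cells, against 2715, 3037, 4170 and 4230 units in Ctrl-Mhi cells (1.58, SE 0.18, adjusted p = 0.000409), and Gadd45a, a stress response gene, averaged 2526 ± 286 units in Cre-Mlo and 1211 ± 296 units in Ctrl-Mhi cells (1.09, adjusted p = 0.00568).

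Some stress and redox genes rose, while others of their lists fell. Nfe2l2, the factor Nrf2 that switches on antioxidant genes, gave 4790, 5748, 5474 and 5746 units in Cre-Mlo cells, against 2677, 2463, 2576 and 2508 units in Ctrl-Mhi cells (1.09, SE 0.13, adjusted p = 0.000471). Gstt2 and Gstm1, which join glutathione to toxic compounds, rose by 1.65 and 0.91 (limma adjusted p = 0.000632 and 0.000565), and so did glutaredoxin Glrx (1.29, adjusted p = 0.00243) and peroxiredoxin Prdx2 (1.04, adjusted p = 0.00195). Ncf4, a subunit of the phagocyte oxidase that makes superoxide, was lower, with 2252, 2581, 2676 and 1893 units in Cre-Mlo cells, against 6007, 6047, 5987 and 6058 units in Ctrl-Mhi cells (−1.37, SE 0.14, adjusted p = 0.000169). The Ctrl-Mhi arrays differed by little for Ncf4. The redox list as a whole had 5 of 55 genes that rose and 3 that fell. Herpud1, a protein of the endoplasmic reticulum stress response, averaged 10619 ± 1097 units in Cre-Mlo and 3816 ± 1148 units in Ctrl-Mhi cells (1.52, adjusted p = 0.00155), and the inducible heat shock gene Hspa1b 1190 ± 352 units in Cre-Mlo and 390 ± 94.4 units in Ctrl-Mhi cells (1.59, adjusted p = 0.00339). Of 54 genes of folding and export in the endoplasmic reticulum 2 rose and 4 fell, a share of 11.1%. Of 40 chaperones of the cytosol and mitochondria 2 rose and 1 fell, a share of 7.5% against 8.8% over all genes.

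In metabolism, large differences were found in single enzymes. Gpam, which attaches the first fatty acid to glycerol phosphate in lipid synthesis, gave 13414, 13062, 14224 and 13402 units in Cre-Mlo cells, against 3106, 2320, 3292 and 3526 units in Ctrl-Mhi cells (2.16, SE 0.14, adjusted p = 4.17e-06). The secreted phospholipase Pla2g12a averaged 36150 ± 1594 units in Cre-Mlo and 15711 ± 2976 units in Ctrl-Mhi cells (1.22, adjusted p = 0.00248). Cerk, the kinase of ceramide, rose by 0.83 (adjusted p = 0.00174), and Acads and Ech1, enzymes of fatty acid breakdown, by 1.12 and 0.81 (limma adjusted p = 0.00137 and 0.00205). Scd1, which puts a double bond into fatty acids, was lower, with 15346 ± 2674 units in Cre-Mlo and 34828 ± 7694 units in Ctrl-Mhi cells (−1.17, adjusted p = 0.00182). Of 63 genes of fatty acids and phospholipids 6 rose and 4 fell. Idh2, a mitochondrial isocitrate dehydrogenase, gave 3159, 3308, 3103 and 3386 units in Cre-Mlo cells, against 989, 703, 1105 and 842 units in Ctrl-Mhi cells (1.85, SE 0.19, adjusted p = 0.000178). Of 101 genes of the citrate cycle and respiratory chain 4 rose and 3 fell, a share of 6.93% against 8.8% over all genes.

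Nucleotide enzymes split as well, with 2 of 39 that rose and 5 that fell. Dck, which makes deoxynucleotides by salvage, averaged 22469 ± 2633 units in Cre-Mlo and 11945 ± 872 units in Ctrl-Mhi cells (0.91, adjusted p = 0.00172), and Adss, an enzyme of AMP synthesis, 7547 ± 461 units in Cre-Mlo and 4277 ± 325 units in Ctrl-Mhi cells (0.82, adjusted p = 0.000641). Pnp, which splits purine nucleosides, was lower (−0.78, adjusted p = 0.0014). The 5 became 3 without Ctrl-Mhi replicate 1, 2 or 4.

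Of 68 genes of the lysosome and autophagy 10 fell and 6 rose, with a median of 0.04, and the hydrolases named here were among those that fell. The 10 became 6 without Cre-Mlo replicate 1, without Cre-Mlo replicate 2 or without Ctrl-Mhi replicate 1. Ctsh, a cathepsin, gave 1052, 901, 643 and 805 units in Cre-Mlo cells, against 5852, 4889, 4313 and 3686 units in Ctrl-Mhi cells (−2.46, SE 0.20, adjusted p = 3.04e-05). Another cathepsin, Ctsc, averaged 1016 ± 120 units in Cre-Mlo and 2472 ± 410 units in Ctrl-Mhi cells (−1.27, adjusted p = 0.000449), and Man2b1, the lysosomal mannosidase, 5036 ± 241 units in Cre-Mlo and 10181 ± 671 units in Ctrl-Mhi cells (−1.01, adjusted p = 0.000294). Man2a1, the mannosidase of the Golgi, was higher (0.84, adjusted p = 0.00275). Of the autophagy genes, Gabarapl1 and Atg5 rose by 1.09 and 0.73 (limma adjusted p = 0.00953 and 0.00559). Pld4, an enzyme of endolysosomes, was among the firmest falls of the comparison, with 1199, 1250, 1593 and 1194 units in Cre-Mlo cells, against 9819, 9969, 10169 and 8936 units in Ctrl-Mhi cells (−2.90, SE 0.12, adjusted p = 1.34e-07).

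Genes of ubiquitin rose more often than they fell. Of 66 ubiquitin ligases and proteases 9 rose and 1 fell, with a median of 0.19. They include Peli1, a ligase of receptor pathways (0.79, adjusted p = 0.00384), Uchl1, a protease of ubiquitin (1.46, adjusted p = 0.000769), and Usp3, which takes ubiquitin off histones (0.73, adjusted p = 0.0068). The proteasome activator Psme4 averaged 6530 ± 238 units in Cre-Mlo and 2969 ± 326 units in Ctrl-Mhi cells (1.14, adjusted p = 0.000489), as 1 of 3 that rose among 43 proteasome genes. Of those 43 genes, 6.98% passed, against 8.8% over all genes. Of 79 genes of RNA splicing and processing 60 lay above 0, against 3368 of 7417 over all genes, with a median of 0.23. In limma 7 of the 79 rose while 0 fell (24 higher and 2 lower at an unadjusted p under 0.05). The share that passed, 8.86%, was near the 8.8% over all genes. The 7 became 2 without Cre-Mlo replicate 2, and 3 or 4 without any other Cre-Mlo array or Ctrl-Mhi replicate 1 or 4, and 11 with a trend in the variance. Xrn1, the exonuclease that degrades decapped RNA, averaged 1157 ± 80.6 units in Cre-Mlo and 554 ± 181 units in Ctrl-Mhi cells (1.12, adjusted p = 0.00809).

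The largest changes reached beyond these lists. Of the 25 largest rises 21 kept their call under each alternative that could be fitted for them, and of the 25 largest falls 16. Prm1, the protamine that packs DNA in sperm, gave 5543, 7219, 5836 and 5089 units in Cre-Mlo cells, against 753, 444, 813 and 1288 units in Ctrl-Mhi cells (2.93, SE 0.29, adjusted p = 0.000143). Dgcr6 averaged 1302 ± 44.2 units in Cre-Mlo and 217 ± 110 units in Ctrl-Mhi cells (2.74, adjusted p = 0.000656). Epha2, a receptor of ephrins, gave 1607, 943, 942 and 1723 units in Cre-Mlo cells, against 60, 324, 107 and 122 units in Ctrl-Mhi cells (3.31, SE 0.61, adjusted p = 0.00666). Its signal was spread in both groups. Litaf, a protein of late endosomes, averaged 9439 ± 900 units in Cre-Mlo and 1953 ± 383 units in Ctrl-Mhi cells (2.29, adjusted p = 3.1e-05). Adm, the peptide hormone adrenomedullin, and Ramp3, a partner of its receptor, rose by 2.54 and 2.31 (limma adjusted p = 0.000858 and 0.0111), and both were dim in Ctrl-Mhi cells at 91 ± 44.2 and 109 ± 26.1 units.

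Among the large falls, Srpk3, a kinase of splicing proteins best known from muscle, gave 964, 1006, 749 and 972 units in Cre-Mlo cells, against 6271, 7147, 6459 and 7524 units in Ctrl-Mhi cells (−2.90, SE 0.13, adjusted p = 2.68e-07). Wfdc21, a secreted protein with a protease inhibitor domain, gave 469, 642, 512 and 374 units in Cre-Mlo cells, against 6498, 6576, 3078 and 5468 units in Ctrl-Mhi cells (−3.40, SE 0.27, adjusted p = 2.4e-05). Kcnn4, a potassium channel that calcium opens, averaged 85.2 ± 25 units in Cre-Mlo and 428 ± 93.3 units in Ctrl-Mhi cells (−2.35, adjusted p = 0.00105). Several other large falls lay close to the floor, where the size of a difference depends on the floor itself. For Nbn, a DNA repair gene, the difference of −2.52 became −0.38 with a floor of 100, and for the small heat shock gene Hspb1 −2.33 became −0.85. Neither passed with that floor (limma adjusted p = 0.296 and 0.0937).

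Cre-Mhi cells shared the culture and the transgene with Cre-Mlo cells but stayed IgM-high. The paper reports from PCR that part of the Cre-Mhi population had already deleted the floxed heavy chain allele, so these cells are not an undeleted control. Their values are set beside the others here, and both comparisons use the same Ctrl-Mhi arrays. Of the 25 largest rises and the 25 largest falls, 0 passed in Cre-Mhi against Ctrl-Mhi cells in limma. At an unadjusted p under 0.05, 7 of the rises were higher and 5 of the falls lower. The share of all genes that passed in that comparison is not given here, so the 0 cannot be read against it. The Cre-Mhi mean lay between those of Cre-Mlo and Ctrl-Mhi cells in 24 of the 25 rises and 22 of the 25 falls. These genes were picked for the distance between Cre-Mlo and Ctrl-Mhi cells, which favours a mean in between. The median differences of Cre-Mhi from Ctrl-Mhi cells were 0.57 for the 25 rises and −0.39 for the 25 falls, against 2.50 and −2.62 for Cre-Mlo minus Ctrl-Mhi. Ptpn6 averaged 12068 ± 636 units, Plcg2 8292 ± 1133 units, Rgs14 6928 ± 535 units and Pim2 3422 ± 559 units in Cre-Mhi cells.

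FxD and FxE cells are a second pair of groups, on arrays that the comparison above did not use. They were sorted straight from Balb/c bone marrow as B220+CD43-IgM- pre-B cells (FxD) and B220+IgM+IgD- immature B cells (FxE), with 3 arrays each, and their RNA was amplified in 2 rounds. In their own fit 299 of 9977 probe sets (3%; 174 higher, 1.74%, and 125 lower, 1.25%) and 236 of 7417 genes (3.18%) passed, 145 genes higher (1.95%) and 91 lower (1.23%) in FxD cells. These calls rest on all 6 arrays: 36, 125 and 90 probe sets passed when FxD replicate 1, FxD replicate 3 or FxE replicate 2 was left out, and 0 when it was FxD replicate 2 or either of FxE replicates 1 and 3, where 1484, 1113 and 1119 had an unadjusted p under 0.05. Of the 25 largest falls in Cre-Mlo cells, 19 had a lower mean in FxD cells than in FxE cells and 12 of them passed, while 0 rose (16 lower and 3 higher at an unadjusted p under 0.05). Their median difference of FxD minus FxE was −2.48. Pld4 averaged 1516 ± 241 units in FxD and 9319 ± 2723 units in FxE cells (−2.59, adjusted p = 0.0186), Srpk3 1113 ± 217 units in FxD and 6285 ± 1602 units in FxE cells (−2.48, adjusted p = 0.0186), and Vcl 567 ± 225 units in FxD and 4472 ± 1355 units in FxE cells (−3.03, adjusted p = 0.0237). Of the 25 largest rises 19 had a higher mean in FxD cells than in FxE cells, of which 5 passed, with a median of 0.70 over the 25. Ezh2 averaged 13317 ± 3749 units in FxD and 2279 ± 323 units in FxE cells (2.52, adjusted p = 0.0184), and Litaf 5394 ± 576 units in FxD and 1452 ± 389 units in FxE cells (1.92, adjusted p = 0.026). Irs2, in contrast, was at 220 ± 116 units in FxD and 242 ± 181 units in FxE cells (0.04, adjusted p = 0.994).

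**Figure D5:**
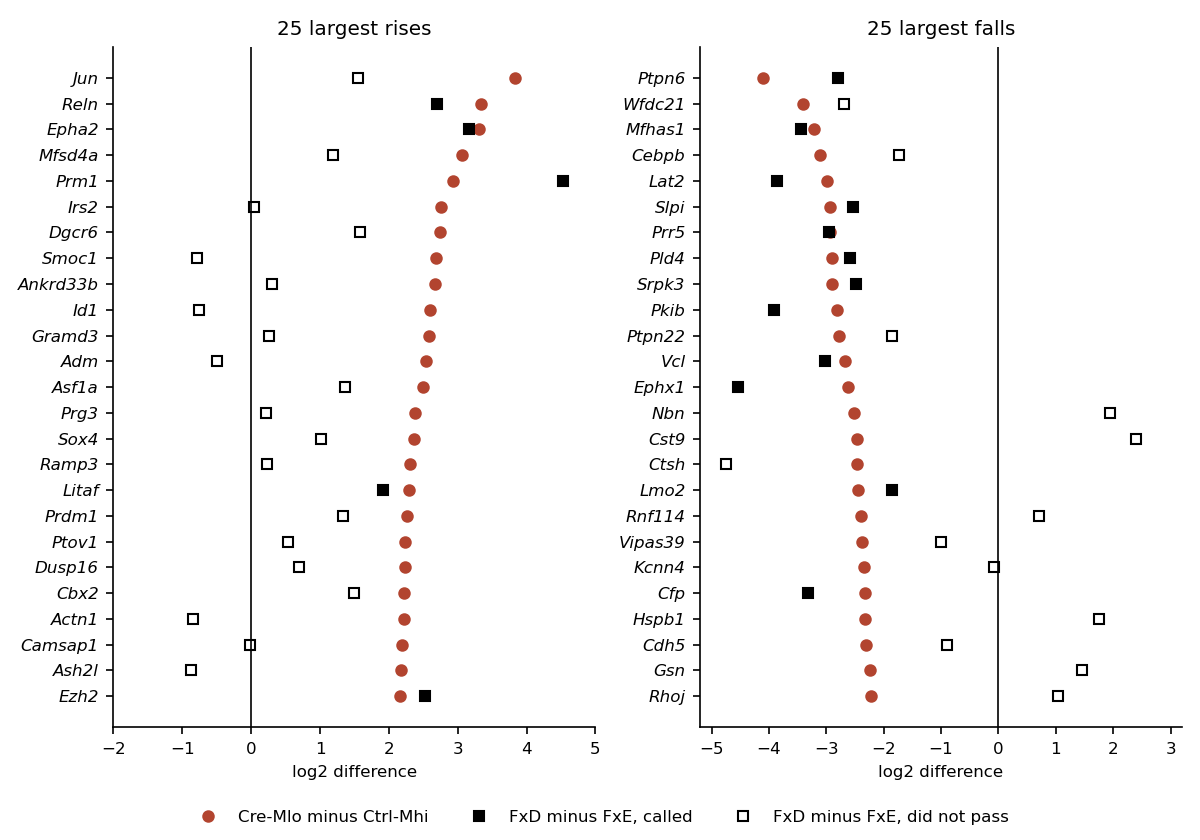
Log2 difference of Cre-Mlo minus Ctrl-Mhi beside that of FxD minus FxE for the 25 largest rises and the 25 largest falls, 1 row per gene. FxD minus FxE is above 0 in 19 of the rises and below 0 in 19 of the falls.

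The replication and mitosis list ran the other way in the marrow pair. There 44 of its 68 genes rose, 0 fell (58 higher and 0 lower at an unadjusted p under 0.05) and the median was 2.05 for FxD minus FxE, while 6 fell and 0 rose with a median of −0.66 for Cre-Mlo minus Ctrl-Mhi. The difference between these differences was not tested.

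Markers of other cell types were read over whole lists. Of T cell, NK cell, myeloid, erythroid and megakaryocyte markers 0 of 11, 0 of 10, 0 of 22, 0 of 10 and 0 of 5 passed in limma. At an unadjusted p under 0.05 were 1 T cell marker, lower, and 2 NK cell markers, 1 in each direction, and 0 of the others. Summed signals of the 22 myeloid markers ran from 4969 to 7345 units in Cre-Mlo and from 5596 to 8100 units in Ctrl-Mhi arrays. Of 13 markers of mast cells, basophils and eosinophils 1 passed, Prg3, an eosinophil granule protein, which rose (2.38, adjusted p = 0.0165, and 0.0506 without Cre-Mlo replicate 2). Their summed signals ran from 2690 to 4323 units in Cre-Mlo and from 2010 to 2863 units in Ctrl-Mhi arrays. Of 15 markers of stromal and endothelial cells 1 passed, Cdh5, which fell near the floor (−2.30, adjusted p = 0.0404). Its call was lost with a floor of 100 (−0.71, adjusted p = 0.28) and without any Cre-Mlo array or Ctrl-Mhi replicate 1, 2 or 4 (adjusted p up to 0.106). The median of these 15 was −0.54, the furthest from 0 of the cell types, with 3 lower and 0 higher at an unadjusted p under 0.05, and their summed signals ran from 2676 to 4223 units in Cre-Mlo and from 2832 to 5658 units in Ctrl-Mhi arrays. Of 6 plasma cell markers 2 rose, Prdm1 and Irf4, and 0 fell, with a median of 0.43. The summed signals of the 6 ran from 26494 to 33591 units in Cre-Mlo and from 10031 to 13772 units in Ctrl-Mhi arrays. A sum of signals is led by its brightest probe sets, so it does not show a shift of a whole list. The part of other cells in the results above was not tested. Of 13 B lineage markers, which include some of the genes set aside, 3 rose and 4 fell, with summed signals of 265364 to 291325 units in Cre-Mlo and 307034 to 327274 units in Ctrl-Mhi arrays.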

How the data were processed

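RNA of sorted cells was hybridized to Affymetrix U74Av2 arrays. The authors computed 1 intensity per probe set with Microarray Suite, applied mask corrections, and scaled every array to 1500 units. The deposited intensities are linear, 9977 per array, without detection p-values. Probe sets were named from an annotation of 2016 with symbols updated through RefSeq: 8724 match 1 gene (7417 genes), 346 several and 907 none, and only the first are named. Signals under 20 were raised to 20, and log2 values of the 12 arrays of Cre-Mlo, Cre-Mhi and Ctrl-Mhi were fitted together in limma 3.58.1 (R 4.3.3), with two-sided moderated tests and Benjamini-Hochberg adjustment over the 9977 probe sets. FxD and FxE had a fit of their own. The steps were tested on simulated data. The number of arrays limits the precision. A p-value sets a difference against the spread between arrays of a group, pooled over all groups of its fit. The fit of 12 arrays treats Cre-Mlo and Cre-Mhi sorts as independent, although both came from Mx-Cre cultures.

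The members and gene lists were chosen with earlier results of these data known. Named genes are the 25 largest rises and falls among passed probe sets with no overlap between the groups, plus up to 6 passed members of each list with the smallest adjusted p, with up to 2 that did not pass. Cnn2, Myo1e, Actg1 and Irf4 were named after their values were seen. Alternatives were quantile normalization, a floor of 100, log2(signal + 50), a mean signal of at least 200, the 8 arrays alone, the replicate number as a block, a trend in the variance, each array left out, and the methods' t-test. Comparisons with other groups of the series are not analysed here.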

Additional observations from a re-analysis of the deposited data

Results flagged for a closer look

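For 262 groups of 4 arrays, those of the named genes, the highest or lowest array was set against the other 3 by Dixon's test. The gap was too wide in 13 groups (4.96%). Chance gives 5% for genes that are not chosen by their values. Nearly all of these genes were chosen because they passed, so the share is no check of the arrays. The values are in units, with the range of the other 3 arrays of the group beside each. Among Cre-Mlo arrays, replicate 3 gave 138.7 for Egr1 (551.9 to 601.3), 8124 for Il16 (8590.5 to 8668.5), 1593 for Pld4 (1194 to 1250), 136 for Ptpn22 (66.6 to 72.3) and 749 for Srpk3 (964 to 1006). Cre-Mlo replicate 1 gave 9475 for Pml (12532 to 13028), and replicate 4 gave 36465 for Rac2 (31762 to 31972). Among Ctrl-Mhi arrays, replicate 1 gave 1262 for Gabarapl1 (711 to 777), 71.4 for Prg3 (246 to 290) and 69842 for Rac2 (62378 to 63560). Ctrl-Mhi replicate 2 gave 3614 for Prdx2 (5041 to 5220.5), and replicate 3 gave 2239 for Peli1 (1772 to 1841) and 4121 for Ptpn18 (4648 to 4710).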

How the results depend on the processing

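Of 831 probe sets that passed, 777 also passed after quantile normalization (835 in all), 794 with a floor of 100 (1074), 824 on log2(signal + 50) (869), 782 with a mean signal of at least 200 (1053), 649 with the 8 arrays alone (708) and 812 with a trend in the variance (1097). Leaving out 1 array gave 581 to 882, 288 to 443 higher and 293 to 439 lower. The methods' t-test with its thresholds called 285, 154 higher and 131 lower, and 175 after Benjamini-Hochberg, 97 higher and 78 lower. The cause of the lower counts was not tested. Cre-Mlo and Ctrl-Mhi arrays with the same replicate number did not deviate together (correlations of −0.0536 to 0.00734), nor did FxD and FxE arrays (−0.137 to −0.0317). Between Cre-Mlo and Cre-Mhi arrays these correlations were 0.0112 to 0.166, and 3 of 4 arrays matched best with their own number, a hint from the data and not the design. With the replicate block 675 passed, 4 PI3K and 4 splicing genes rose, and 2 chromatin, 3 G1, 3 vesicle traffic and 3 guidance and adhesion genes fell. Of the 130 named genes that passed, 119 kept direction and call in each fit that could be made, 64 of 2465 such values lost the call, and 0 turned. FxD against FxE gave 299 probe sets, 313 after quantile normalization and 296 with a floor of 100. It gave 0 with the replicate block (1185 at an unadjusted p under 0.05), 0 higher and 0 lower, and 0 to 125 with 1 array left out, 0 to 71 higher and 0 to 54 lower. With 4 or 3 arrays a group small differences may be missed, and signals near the floor have no settled size.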
